A study of Mus musculus with 18 samples.

Results

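The 8 receptors of the SLAM family, Slamf1, Cd48, Cd84, Ly9, Slamf6, Slamf7, Slamf8 and Slamf9, were examined by symbol in sorted bone marrow cells of lupus-prone and control mice. All 8 were listed among the 19780 genes of the LSK table and among the 18428 genes of the CMP table. They lie within 1.00 Mb of chromosome 1 (GRCm38), from Ly9 at chr1:171588624-171607410 to Slamf8 at chr1:172581758-172590568.

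SLAM receptors are immunoglobulin-like surface proteins of blood cells. Most bind to another copy of themselves on a neighbouring cell, whereas Cd48 is a lipid-anchored ligand for Cd244 and Cd2. Their tails recruit the small adaptors SAP (Sh2d1a), EAT-2 (Sh2d1b1) and ERT (Sh2d1b2), which couple them to the kinase Fyn or compete with phosphatases. In mouse bone marrow, staining for CD150 (Slamf1) without CD48 marks long-term stem cells, and CD48 appears as cells become multipotent progenitors. The gene cluster also differs between inbred strains. C57BL/6 carries one haplotype of it and NZB and NZW another, and the region lies in a lupus susceptibility interval.

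RNA from 18 samples of female mice was sequenced, 3 per group. LSK (Lin−Sca-1+c-Kit+ cells, which hold stem and early progenitor cells) came from NZBW/F1 mice before disease (F1-P, 12 weeks) and with lupus and proteinuria (F1-L, 28 to 36 weeks), and from age-matched C57BL/6 mice (B6-Y and B6-O). NZBW/F1 mice are the offspring of NZB and NZW parents and develop lupus spontaneously. CMPs (common myeloid progenitors) came from F1-P and F1-L only. Disease and age changed together between F1-P and F1-L, and cannot be told apart within the strain. The strains differ across the whole genome, so the haplotype of this locus and the rest of the genome cannot be told apart either.

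Values are CPM relative to library sizes that were rescaled between samples, so that a column does not sum to a fixed total. LSK libraries held between 23772252 and 28493747 reads in genes, and CMP libraries between 20001328 and 24761060. After this scaling 1 read was worth 0.0310 to 0.0584 CPM. Differences were tested with limma on log2(CPM + 1) across all genes that reached 1 CPM in 3 or more samples of the fit. A gene was called where the Benjamini-Hochberg adjusted p was 0.05 or lower and the groups differed by more than 1.5-fold. Fold changes are on the log2(CPM + 1) scale, which understates changes of low genes. The labels do not say whether replicates came from separate animals, and p-values measure the spread between these samples. Kit, which the LSK gate uses, stood at 257 to 657 CPM in LSK. Ly6a, which encodes Sca-1, stood at 293 to 879 CPM in NZBW/F1 LSK, 35.5 to 113 CPM in C57BL/6 LSK and 1.14 to 6.70 CPM in CMPs. Libraries also carried transcripts of mature cells. Of the reads, 16.8% to 36.6% in NZBW/F1 LSK fell in immunoglobulin genes, and 0.301% to 4.76% in C57BL/6 LSK. The highest C57BL/6 share was in B6-O replicate 3, and CMP F1-P replicates 2 and 3 held a summed 5813 and 7626 CPM of 8 neutrophil markers, against 57.9 to 391 CPM in the other CMP libraries.

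Promoter sequences are shown for Slamf7 and Slamf9, the members with the largest strain difference, and for Slamf1, the stem cell marker. RefSeq (GRCm38.p6) gave promoters for 7 of the 8 members. Each line holds the 200 bases before the RefSeq start, read 5′ to 3′ on the strand of the gene, and capitals mark each E-box (CANNTG), the motif of basic helix-loop-helix factors.
Slamf7 (chr1:171649000-171649199, minus strand): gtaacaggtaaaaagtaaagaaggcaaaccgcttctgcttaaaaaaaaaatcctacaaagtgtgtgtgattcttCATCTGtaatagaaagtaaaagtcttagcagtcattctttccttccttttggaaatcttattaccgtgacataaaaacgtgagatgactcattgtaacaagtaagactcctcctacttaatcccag
Slamf9 (chr1:172475160-172475359, plus strand): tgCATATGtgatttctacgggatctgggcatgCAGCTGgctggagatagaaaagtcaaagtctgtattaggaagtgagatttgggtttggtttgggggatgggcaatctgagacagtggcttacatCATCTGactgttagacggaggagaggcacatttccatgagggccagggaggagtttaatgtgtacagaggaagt
Slamf1 (chr1:171766932-171767131, plus strand): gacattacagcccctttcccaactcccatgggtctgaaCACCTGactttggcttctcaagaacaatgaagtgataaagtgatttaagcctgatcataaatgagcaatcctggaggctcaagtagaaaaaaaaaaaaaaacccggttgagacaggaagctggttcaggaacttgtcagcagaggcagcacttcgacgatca
The printed stretch holds 3 E-boxes for Slamf9 and 1 each for Slamf7 and Slamf1. Over the full window of 250 bases before to 50 bases after the start, all 7 members had an E-box, and so did 72.3% of 32851 mouse promoters. Both strands were searched, and an E-box reads as an E-box on either strand. The GATA element AGATAA, held by 11.2% of all promoters, had no match in any of the 7 windows. These are matches of letters in the reference genome, and the sequence of the NZB and NZW parents was not analysed here.

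Levels of different genes were set side by side per kilobase of annotated exon. Cd48 was the highest member in every group, at 40.6 to 54.7 CPM per kb as group means in LSK and 44.8 to 48.8 in CMPs. In C57BL/6 LSK, Ly9 (15.2 to 16.9 CPM per kb) and Cd84 (10.5 to 11.0) came next, and the ranges of these 3 members did not overlap. The other 5 members had group means of at most 4.03 CPM per kb there. In NZBW/F1 LSK the order was different, because Slamf7 (16.1 to 31.5 CPM per kb) and Slamf9 (17.9 to 21.4) lay among Cd48, Ly9 and Cd84 with overlapping ranges. Slamf6, Slamf1 and Slamf8 were the lowest in both NZBW/F1 LSK groups, and Slamf8 had group means of 0.206 to 0.402 CPM per kb over the 4 LSK groups, level with Slamf6 in B6-O. The Slamf6 value depends on its 10832 bases of merged exons, since Slamf6 has several isoforms that gene counts do not separate.

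**Figure D1:**
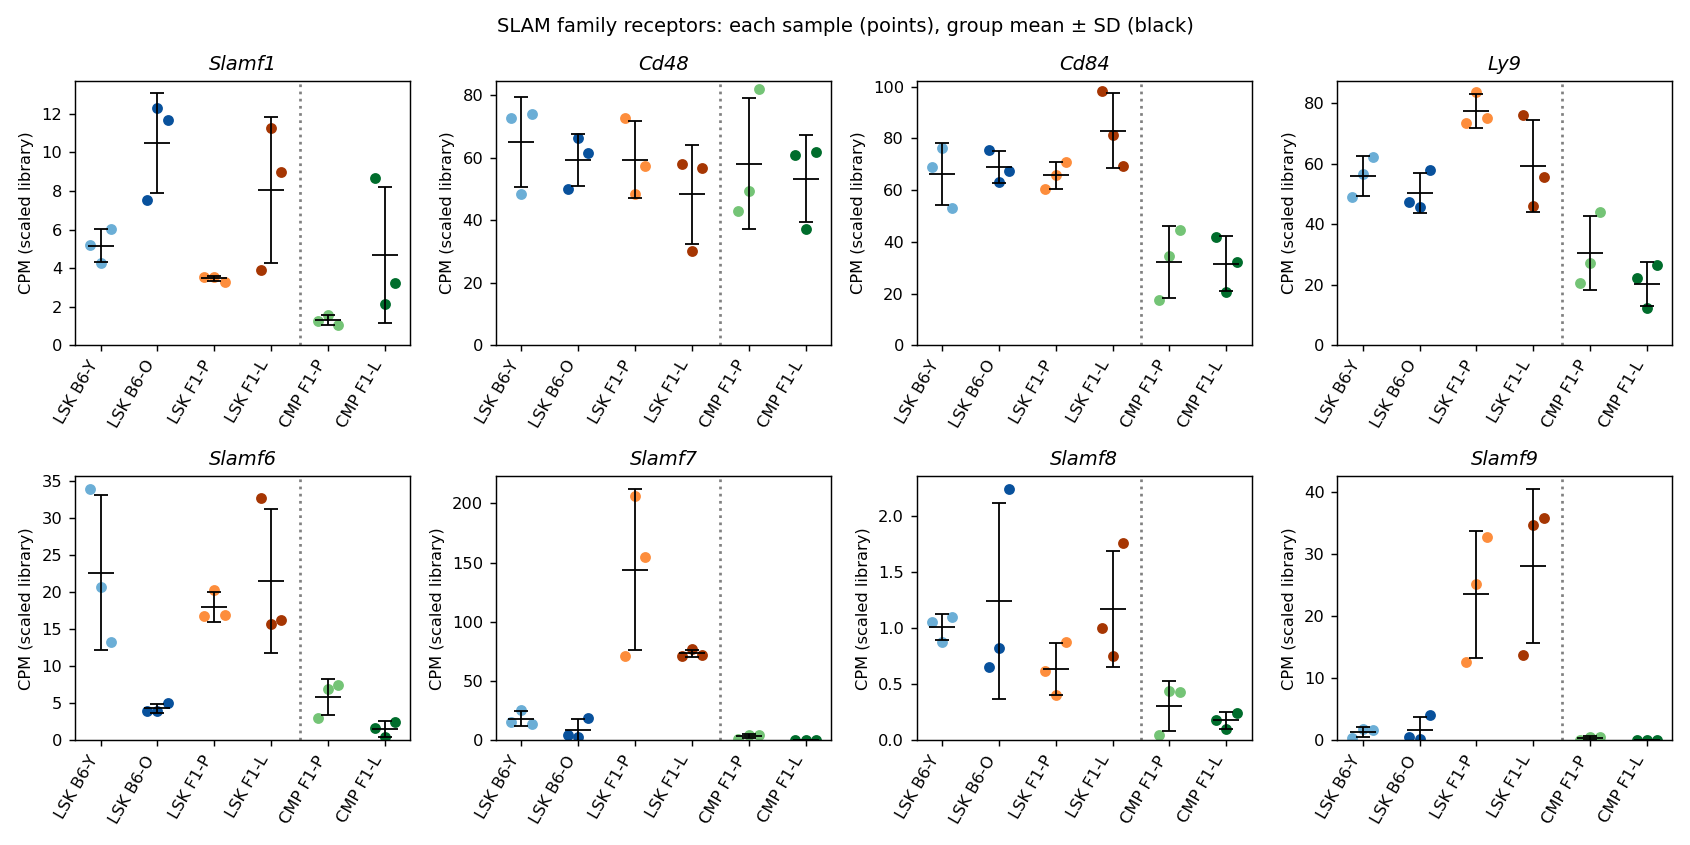
CPM of the 8 receptors on the vertical axes in each of the 18 samples (points) by group, with the group mean and SD in black and a dotted line between the separately normalised LSK and CMP tables. Slamf7 and Slamf9 are high in both NZBW/F1 LSK groups, Slamf6 is low in B6-O at 3.95 to 5.08 CPM, and every older group lies above its younger group in Slamf1.

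The pair that defines stem cells by flow cytometry, Slamf1 and Cd48, was compared between stages. Slamf1 (chr1:171767127-171801184) was higher in every older sample than in any younger sample of the same strain and cell type. In LSK it measured 3.55, 3.56 and 3.30 CPM in F1-P and 3.89, 11.3 and 8.98 CPM in F1-L. In C57BL/6 LSK it measured 5.21, 4.29 and 6.02 CPM in B6-Y and 7.53, 12.3 and 11.7 CPM in B6-O. In NZBW/F1 LSK 0 of the 7 tested members were called between the stages, against 0.0279% of all genes, while 12.8% of all genes had an unadjusted p below 0.05. The Slamf1 values of the stages did not overlap in either strain, although F1-L replicate 1 lay just above the F1-P samples. Of all genes tested, 10.4% were higher without overlap in F1-L than in F1-P and 5.69% in B6-O than in B6-Y. The log2 difference was 0.92 (SE 0.33, adjusted p = 0.318 in limma) between F1-L and F1-P and 0.88 (SE 0.24, adjusted p = 0.410) between B6-O and B6-Y, so Slamf1 was not called in either. F1-P lay below B6-Y without overlap, as did 18.1% of all genes (−0.46, SE 0.18, adjusted p = 0.125 in limma). Averaged over the strains, a contrast added after the Slamf1 values were seen, older LSK exceeded younger LSK by 0.90 (SE 0.22, adjusted p = 0.0626 in limma). This missed the threshold, which 1.66% of all genes passed. The adjusted p was 0.0461 in edgeR's quasi-likelihood test and 0.00101 in DESeq2. Because the contrast was chosen from these same values, no call in it supports a Slamf1 difference.

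Cd48 (chr1:171682009-171705258) was not called in any comparison. It measured 72.5, 48.4 and 57.2 CPM in F1-P LSK and 57.8, 30.0 and 56.8 CPM in F1-L LSK, a log2 difference of −0.33 (95% confidence interval −0.98 to 0.31, adjusted p = 0.686 in limma). In C57BL/6 LSK the values were 72.7, 48.5 and 73.8 CPM in B6-Y and 50.1, 66.2 and 61.4 CPM in B6-O, a log2 difference of −0.12 (95% confidence interval −0.60 to 0.36). The stages overlapped in both strains. Within a library, the number of Slamf1 reads per 100 Cd48 reads does not depend on the scaling. It was 4.89 to 7.35 in F1-P and 6.72 to 37.6 in F1-L, which overlapped, and 8.05 ± 0.843 (SD, n = 3) in B6-Y and 17.6 ± 2.21 in B6-O, which did not. F1-L replicate 2 gave the value of 37.6, with the lowest Cd48 and the highest Slamf1 of its group. Of 5 other markers of multipotent and lymphoid-primed progenitors (Flt3, Il7r, Dntt, Cd34 and Cd27), 0 were called between stages in NZBW/F1 LSK, against 0.0279% of all genes. Averaged over stages 4 were called lower in NZBW/F1 than in C57BL/6, against 19% of all genes, while Il7r was higher (0.38) and not called. The sums of the 5 markers ran from 1102 to 2533 CPM in F1-P, 732 to 1024 in F1-L, 2177 to 2923 in B6-Y and 1842 to 2336 in B6-O.

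Other stem cell markers moved in the same direction as Slamf1. Of 9 of them, among them Procr, Hlf and Fgd5, 9 were positive between F1-L and F1-P, with a median log2 difference of 0.68 against −0.01 over all genes, and 0 were called. Between B6-O and B6-Y 9 of the 9 were positive with a median of 0.56 against 0.02 over all genes, and again 0 were called. In the contrast averaged over strains, which was added after the Slamf1 values were seen, 2 of the 9 were called, against 1.66% of all genes. These were Vwf (1.67, adjusted p = 0.0176 in limma) and Hoxb5 (0.87, adjusted p = 0.0283 in limma), which encode von Willebrand factor and a homeobox factor restricted to long-term stem cells. The sum of the 9 markers ranged from 267 to 391 CPM in F1-P, 378 to 701 in F1-L, 446 to 561 in B6-Y and 565 to 812 in B6-O. Whether the composition of the sort accounts for Slamf1 was not tested, and in bulk RNA more cells of a type cannot be told apart from more RNA per cell. Neutrophil markers were also higher with stage and by more than the stem cell markers, with 0 called. Of them 8 of 8 were positive between F1-L and F1-P (median 3.00) and 8 of 8 between B6-O and B6-Y (median 1.14). Macrophage markers were positive in 8 of 8 between F1-L and F1-P (median 1.53) and negative in 8 of 8 between B6-O and B6-Y. Of 3 megakaryocyte markers tested, 3 were positive in each strain (medians 1.57 and 0.84) with 0 called, and 1 of 4 was called averaged over strains.

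**Figure D2:**
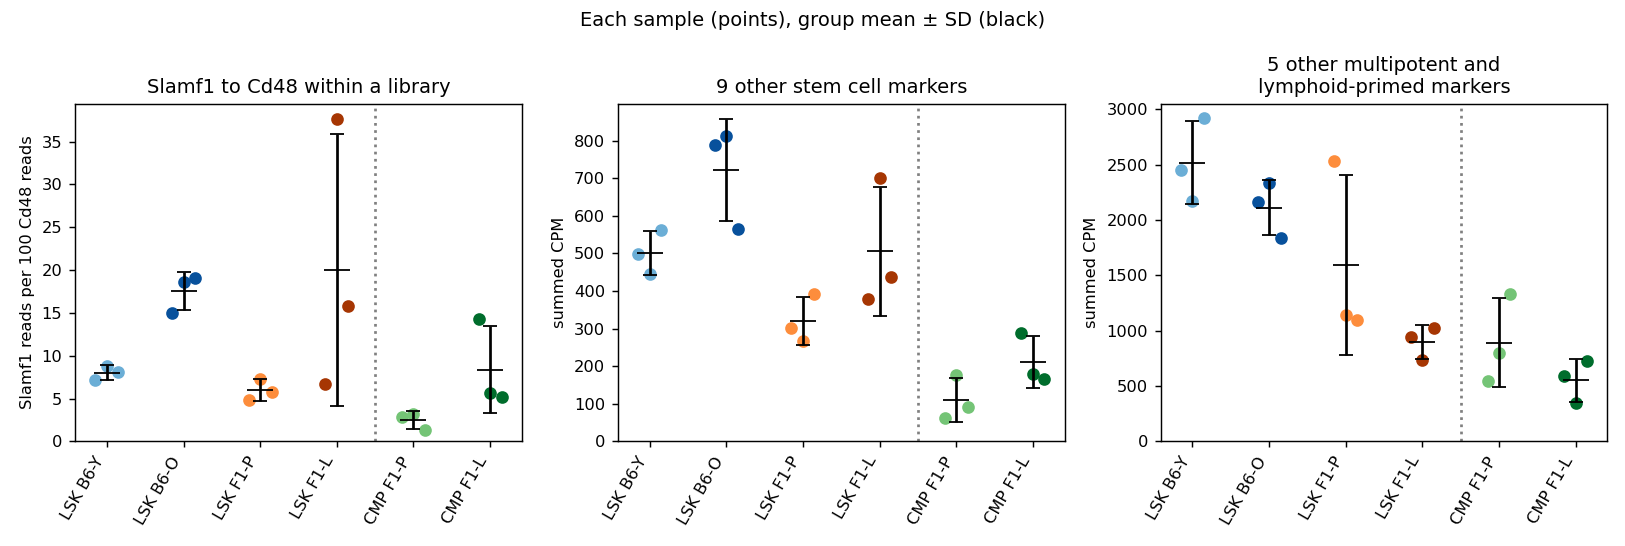
Slamf1 reads per 100 Cd48 reads (left), summed CPM of 9 other stem cell markers (middle) and of 5 other markers of multipotent and lymphoid-primed progenitors (right) in each sample by group, with mean and SD in black and a dotted line between the LSK and CMP tables. The ratio averages 8.05 in B6-Y and 17.6 in B6-O, and spreads from 6.72 to 37.6 in F1-L.

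Slamf7 and Slamf9 were the members furthest apart between strains in LSK. Slamf7 (CRACC, chr1:171632403-171653035) is a receptor of natural killer cells, activated lymphocytes and plasma cells. It measured 71.3, 206 and 154 CPM in F1-P and 71.6, 76.9 and 72.4 CPM in F1-L. In C57BL/6 it measured 15.8, 25.8 and 13.7 CPM in B6-Y and 4.61, 2.59 and 19.2 CPM in B6-O. All 6 NZBW/F1 samples lay above all 6 C57BL/6 samples, as in 9.53% of all genes. F1-P exceeded B6-Y by 2.82 on the log2 scale (SE 0.39, adjusted p = 0.00252 in limma), and F1-L exceeded B6-O by 3.33 (SE 0.58, adjusted p = 0.0114).

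Slamf9 (chr1:172475358-172478575), a member with a short tail known from dendritic cells and macrophages, showed the same separation from lower levels. It measured 12.6, 25.3 and 32.7 CPM in F1-P and 13.8, 34.7 and 35.8 CPM in F1-L. C57BL/6 samples held 0.465, 1.82 and 1.75 CPM in B6-Y and 0.622, 0.253 and 4.08 CPM in B6-O, from 8 to 122 reads. The 2 strains did not overlap. Only 2 of 3 B6-Y and 1 of 3 B6-O samples reached 1 CPM, so Slamf9 passed the filter on low values through NZBW/F1, and it was called without that filter as well. As a description, its log2 difference was 3.35 (SE 0.39) before disease and 3.63 (SE 0.59) at the older age.

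Slamf7 and Slamf9 were the 2 of 7 tested members called between F1-P and B6-Y, where 16.2% of all genes were called. Between F1-L and B6-O 3 of 8 members were called, these and Slamf6, against 11.6% of all genes. Slamf9 entered both of these counts through NZBW/F1 alone, so its calls there are given as a description. Averaged over stages the same 3 members were called of 8, against 19% of all genes, with Slamf7 at 3.08 (adjusted p = 0.000103 in limma), Slamf9 at 3.49 (adjusted p = 4.23e-05) and Slamf6, whose strains overlapped, at 0.89 (adjusted p = 0.0125). The median log2 difference of the 8 members was 0.23, against −0.03 over all genes. In the older pair the Slamf7 call depended on single samples. Slamf7 had an adjusted p of 0.0566 to 0.0631 in limma when F1-L replicate 1, 2 or 3 or B6-O replicate 1 was left out. As a description, the adjusted p of Slamf9 was 0.0506 and 0.0515 without F1-L replicate 2 and 3. Without B6-O replicate 3, the C57BL/6 library with the highest Slamf7 and Slamf9 of its group, the differences were 4.06 and 4.24.

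**Figure D3:**
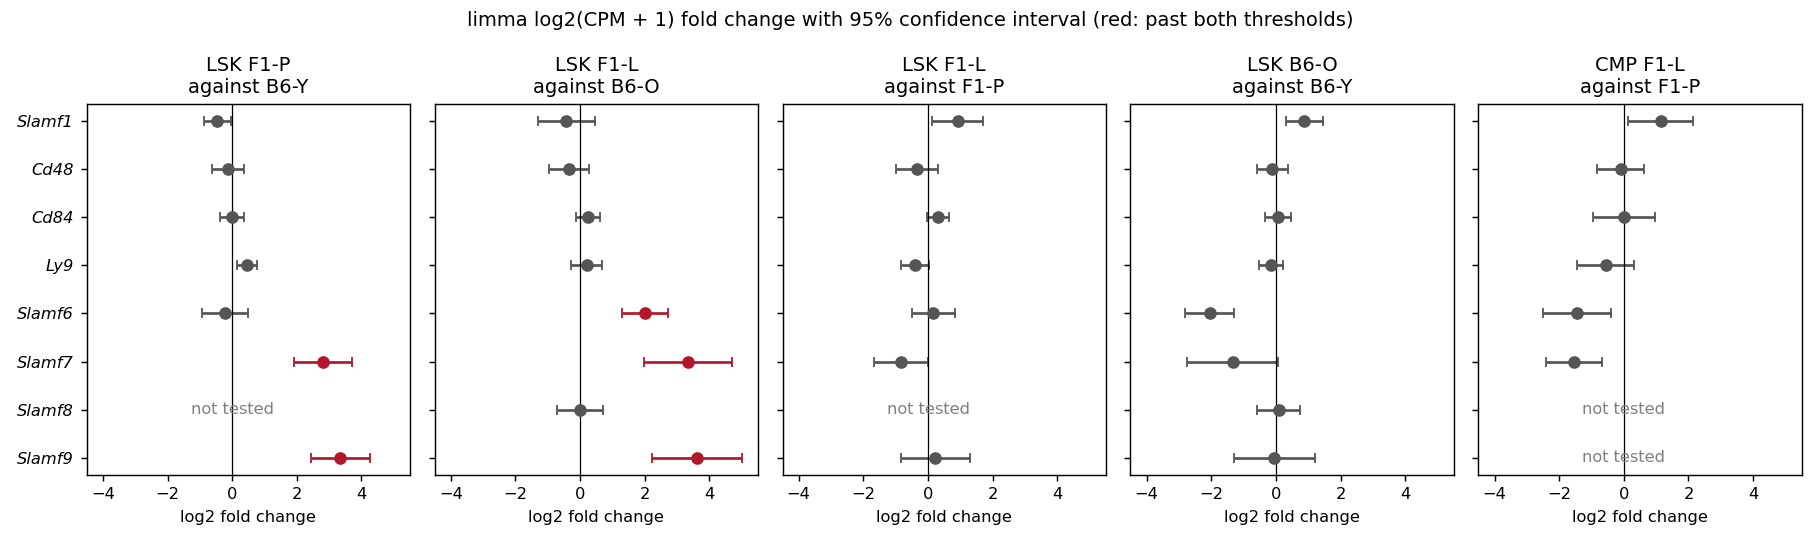
log2 fold change (horizontal axes) of each receptor with its 95% confidence interval in the 5 two-group comparisons, in red where the adjusted p and the fold change both passed. Slamf7 and Slamf9 stand near 3 in both strain comparisons, Slamf6 stands at 2.00 between F1-L and B6-O, and no member passed between stages.

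Plasma cell markers differed between the strains in the same direction as Slamf7 and Slamf9. All 7 of the listed markers (Sdc1, Jchain, Xbp1, Mzb1, Prdm1, Irf4 and Tnfrsf17) were called higher in F1-P than in B6-Y, against 16.2% of all genes called. In F1-L 6 of 7 were called higher than in B6-O, against 11.6% of all genes. Their summed level was 14497 to 37483 CPM in F1-P, 9587 to 12837 in F1-L, 781 to 1967 in B6-Y and 249 to 2502 in B6-O. Jchain made up most of it, and without Jchain the sums were 1558 to 4158, 1301 to 1986, 255 to 466 and 133 to 404 CPM. No marker of the list was at 0 in an LSK library. Between F1-L and F1-P 7 of 7 plasma cell markers were negative with a median of −0.91 and 0 called, beside −0.83 for Slamf7 and 0.23 for Slamf9, so that Slamf9 did not go in their direction between stages. Within F1-P and B6-O the same libraries stood out. F1-P replicate 1 was lowest of its group in Slamf7, Slamf9 and the plasma cell sum, and B6-O replicate 3 was highest of its group in all of these. In B6-Y, Slamf7 was lowest in replicate 3 and the sum in replicate 1. In F1-L, Slamf7 was highest in replicate 2 (76.9 CPM) and the sum in replicate 3. Slamf9 had the same order as the sum in B6-Y and F1-L. Over the 12 LSK samples, which share libraries and strain, log2 Slamf7 had a Pearson r of 0.98 with Jchain and 0.97 with Sdc1, and 0.90 and 0.82 after group means were subtracted. For Slamf9 these values were 0.93 and 0.90, and 0.87 and 0.85. Natural killer cell markers were higher too, with 5 of 6 called in both strain comparisons, beside the same 16.2% and 11.6% of all genes. Their sums were 188 to 392 CPM in NZBW/F1 LSK against 50.1 to 100.2 CPM in C57BL/6 LSK. Of 8 macrophage markers, 0 were called between F1-P and B6-Y and 3 were called higher between F1-L and B6-O. In B6-O replicate 2, 1 plasma cell, 2 natural killer cell and 4 macrophage markers lay below 1 CPM, so B6-O alone would not have passed them through the filter. The part of these cells in the strain difference was not tested. Of the exonic bases of Slamf7, 9.24% overlap the antisense gene Gm37787, and the library kit does not mark strand.

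**Figure D4:**
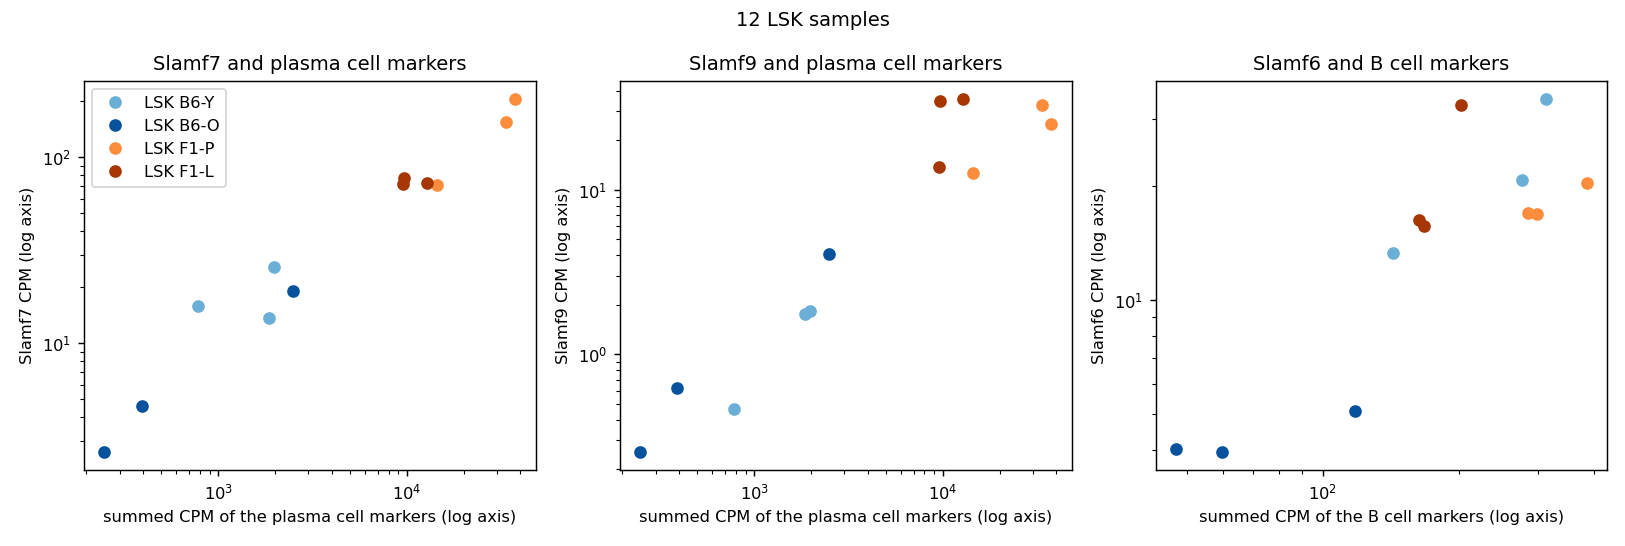
CPM of Slamf7, Slamf9 and Slamf6 (vertical, log axes) against the summed CPM of 7 plasma cell markers (left and middle) or 7 B cell markers (right; horizontal, log axes) in the 12 LSK samples. The NZBW/F1 samples hold 9587 to 37483 CPM of plasma cell markers and the C57BL/6 samples 249 to 2502, and the B6-O samples hold the lowest Slamf6 and the lowest B cell marker sums.

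Slamf6 (Ly108, chr1:171917515-171953170), a receptor of lymphocytes whose isoforms differ between the haplotypes of the locus, was low in one of the 4 LSK groups. B6-O held 3.95, 4.04 and 5.08 CPM. B6-Y held 34.0, 20.7 and 13.3 CPM, F1-P 16.9, 20.3 and 16.9 CPM and F1-L 32.8, 15.7 and 16.2 CPM. The other 3 LSK groups overlapped with each other, and none of them overlapped with B6-O. Of all genes, 17.5% were higher without overlap in F1-L than in B6-O and 5.57% were lower without overlap in B6-O than in B6-Y. Slamf6 was called between F1-L and B6-O (log2 difference 2.00, SE 0.30, adjusted p = 0.00678 in limma) and not between F1-P and B6-Y (−0.22, SE 0.30, adjusted p = 0.669). In every leave-out of 1 sample it stayed called between F1-L and B6-O.

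Between B6-O and B6-Y Slamf6 differed by −2.05 on the log2 scale (SE 0.33, adjusted p = 0.163 in limma) and was not called. In that comparison 0 of 14005 genes were called (0%), 6.62% had an unadjusted p below 0.05, and edgeR's quasi-likelihood test also called 0 genes. The likelihood ratio test called 114 genes and DESeq2 207, and Slamf6 was among both (adjusted p = 2.26e-05 and 2.58e-07). The stage difference in NZBW/F1 was 0.17 (SE 0.28). The difference between the strains in this stage effect was 2.22 (SE 0.46, adjusted p = 0.607 in limma), where 0% of 15084 genes were called, 3.92% had an unadjusted p below 0.05 and Slamf6 was called by the likelihood ratio test (adjusted p = 0.0039) and DESeq2 (adjusted p = 0.00204).

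B cell markers were also low in B6-O. The summed level of 7 of them, among them Cd79a, Ms4a1 and Pax5, was 47.3 to 118 CPM in B6-O, 143 to 312 in B6-Y, 284 to 385 in F1-P and 163 to 202 in F1-L, although the stated gate excluded B220+ cells. Between B6-O and B6-Y 6 of the 7 were negative with a median of −1.02 against 0.02 over all genes, and 0 were called. Between F1-L and F1-P 5 of the 7 were negative with a median of −0.65 and 0 called. The Slamf6 difference was positive there, so Slamf6 did not go in their direction between these stages. Other lists were lower in B6-O than in B6-Y too, with 0 called. Of plasmacytoid dendritic cell markers 5 of 5 were negative (sums of 246 to 327 CPM against 394 to 425 CPM), of plasma cell markers 7 of 7, of T cell markers 6 of 6 and of macrophage markers 8 of 8. Macrophage markers also differed in their stage effect between strains, with 8 of 8 positive and a median of 2.16, beside 8 of 8 and 1.81 for neutrophil markers and 7 of 7 and 0.86 for B cell markers, again with 0 called. The part of these cells in the Slamf6 levels was not tested.

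Ly9, Cd84 and Slamf8 completed the family. Ly9 (CD229, chr1:171588624-171607410), a self-binding receptor of lymphocytes, measured 73.4, 83.7 and 75.2 CPM in F1-P LSK, above 48.9, 56.6 and 62.2 CPM in B6-Y. These groups did not overlap, as in 17.4% of all genes in that direction. The log2 difference of 0.47 (SE 0.13, adjusted p = 0.0501 in limma) missed both thresholds. In F1-L it measured 75.9, 46.1 and 55.5 CPM, within the range of the other groups, and in B6-O 47.3, 45.7 and 57.8 CPM. Ly9 overlaps the body of Cd244a on the opposite strand and shares 0 exonic bases with it.

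Cd84 (chr1:171839697-171890718), a self-binding receptor of myeloid cells, B cells and platelets, was not called in any comparison. Group means were 65.7 ± 5.36 CPM (SD, n = 3) in F1-P, 83.0 ± 14.5 in F1-L, 66.2 ± 11.9 in B6-Y and 68.8 ± 6.17 in B6-O. The difference averaged over stages was 0.13 with a 95% confidence interval of −0.12 to 0.38. Slamf8 (chr1:172581758-172590568), a short-tailed receptor of macrophages, had 7 to 67 reads per LSK library and 1 to 11 per CMP library. It passed the filter on low values in the comparison of F1-L with B6-O, in that of B6-O with B6-Y and in the fits of all 12 LSK samples, and was not called in any. Its highest LSK value, 2.24 CPM, was in B6-O replicate 3.

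Of the 8 members, 6 passed the filter on low values in CMPs and 0 of these were called between the stages, against 0.00774% of all genes, while 9.8% had an unadjusted p below 0.05. Slamf1 measured 1.25, 1.59 and 1.06 CPM in F1-P and 8.68, 2.12 and 3.23 CPM in F1-L, without overlap, as in 9.45% of all genes in that direction. Its log2 difference of 1.14 (SE 0.41, adjusted p = 0.480 in limma) was 0.67 without F1-L replicate 1. Of 8 other stem cell markers tested, 8 were positive with a median of 0.90 against 0.04 over all genes, and 0 were called.

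Slamf6 and Slamf7 lay in the other direction in CMPs. Slamf6 measured 3.03, 6.93 and 7.48 CPM in F1-P and 1.68, 0.413 and 2.54 CPM in F1-L (log2 difference −1.45, SE 0.43, adjusted p = 0.413 in limma). Its groups did not overlap, as in 6.57% of all genes in that direction. F1-L replicate 2 lay below 1 CPM, so Slamf6 passed the filter on low values through F1-P, and its test is given as a description. Slamf7 measured 1.49, 4.77 and 4.50 CPM in F1-P and 0.409, 0.258 and 0.796 CPM in F1-L, which was 5 to 16 reads. No F1-L sample reached 1 CPM, so Slamf7 passed the filter on low values through F1-P alone, and its values are given as a description. F1-P replicates 2 and 3, the high samples, also held 156 and 184 CPM of B cell markers, against 36.7 in F1-P replicate 1 and 9.86 to 24.7 in F1-L, and their part in these differences was not tested. Without either of these 2 replicates, or without F1-P replicate 1, Slamf7 no longer passed the filter.

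Between cell types the tables were normalised separately, so levels are given side by side without a test. Cd48 had 48.8 CPM per kb in F1-P and 44.8 in F1-L CMPs, and 49.9 and 40.6 in LSK of the same groups. Slamf7 had a mean of 3.59 CPM in F1-P and 0.488 CPM in F1-L CMPs, against 144 and 73.6 CPM in LSK, and Slamf9 had 0 to 15 reads per CMP library, against 306 to 872 per NZBW/F1 LSK library. Ly9 measured 12.3 to 44.0 CPM in CMPs and 46.1 to 83.7 CPM in NZBW/F1 LSK.

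Adaptors and partners of the receptors were examined as a list of 14 genes. Between F1-P and B6-Y 3 of 14 were called higher and 0 lower, where 16.2% of all genes were called. Between F1-L and B6-O 4 were higher and 0 lower, against 11.6% of all genes. Averaged over stages 4 of 14 were called higher, against 19% of all genes, with a list median of 0.13 against −0.03 over all genes. For Sh2d1a, Sh2d1b1 and Sh2d1b2 fewer than 3 C57BL/6 samples reached 1 CPM, so they passed the filter on low values through NZBW/F1 alone. Their calls in these counts support nothing, and their values are given as a description. Sh2d1a, the adaptor SAP of T and natural killer cells, measured 3.10 to 9.41 CPM in NZBW/F1 LSK and 0.0947 to 1.24 CPM in C57BL/6 LSK (log2 difference averaged over stages 1.86, SE 0.24). Cd2, the adhesion receptor that binds Cd48, measured 12.8 to 36.7 CPM in NZBW/F1 LSK and 1.23 to 6.89 CPM in C57BL/6 LSK (2.22, SE 0.37, adjusted p = 0.000837 in limma).

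The EAT-2 adaptors differed too. Sh2d1b1 (EAT-2) measured 1.81 to 4.45 CPM in NZBW/F1 LSK and 0.442 to 1.67 CPM in C57BL/6 LSK (0.89, SE 0.16). Sh2d1b2 (ERT) had 416 reads in the 6 NZBW/F1 libraries and 6 reads in the 6 C57BL/6 libraries, 0 to 2 per library, so it passed the filter on low values through NZBW/F1 alone. The ratio of their levels was 95.3 (exact 95% confidence interval 43.4 to 261, which covers counting error only). Sh2d1b1 and Sh2d1b2 are close copies of each other, and reads of NZBW/F1 mice were aligned to the C57BL/6 genome, so the split between the copies is uncertain. Cd244a, the receptor for Cd48, was not called (−0.18, 95% confidence interval −0.59 to 0.24), at 22.7 to 48.0 CPM in NZBW/F1 LSK and 26.7 to 47.8 CPM in C57BL/6 LSK. The effect of aligning NZBW/F1 reads to the C57BL/6 genome on the Cd244a level was not tested. The kinases, phosphatases and Vps34 partners of the list, Fyn, Lck, Inpp5d, Ptpn6, Ptpn11, Csk, Prkcq, Becn1 and Pik3c3, were not called between strains. Between stages 0 of 14 were called in NZBW/F1 LSK, 0 of 11 tested in C57BL/6 LSK and 0 of 10 tested in CMPs. Of all genes, 0.0279%, 0% and 0.00774% were called in these comparisons, so a count of 0 says little about the list. T cell and natural killer cell markers were higher along with Sh2d1a, Cd2 and the EAT-2 adaptors. Averaged over stages 4 of 6 T cell markers were called higher in NZBW/F1 LSK (median 1.22), with sums of 32.0 to 84.3 CPM against 8.43 to 27.3 CPM, and 5 of 6 natural killer cell markers (median 2.53). Their part was not tested.

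Neighbouring genes were taken from 500 kb before Ly9 to 500 kb after Slamf8. The LSK table listed 53 of them besides the members, and 41 were tested. Averaged over stages 5 were called higher and 5 lower in NZBW/F1 (24.4%, against 19% of all genes), with a median of −0.08. Of the 41 tested neighbours, 4 were higher in NZBW/F1 without overlap between the strains, beside 9.53% of all genes, and 3 were lower without overlap. The 5 genes named below were both called and without overlap. Itln1, an intelectin, had 541 reads in the NZBW/F1 LSK libraries and 1 in the C57BL/6 libraries, a ratio of 744 (exact 95% confidence interval 133 to 29423, counting error only). Intelectin copies differ in number between mouse strains, and whether its reads come from more than 1 gene was not tested. Pcp4l1 was lower in NZBW/F1 (log2 difference −1.61, SE 0.20, adjusted p = 9.68e-05 in limma), with 6.97 to 18.5 CPM against 19.2 to 47.3 CPM. Fcrl6, an Fc receptor-like gene of lymphocytes, was higher (1.16, SE 0.17), as were Pea15a (0.94, SE 0.13) and 4933439K11Rik (0.73, SE 0.14). Itln1, Fcrl6 and 4933439K11Rik reached 1 CPM in no C57BL/6 sample, so they passed the filter on low values through NZBW/F1 alone. Their calls in the count above support nothing, and their values are given as a description.

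**Figure D5:**
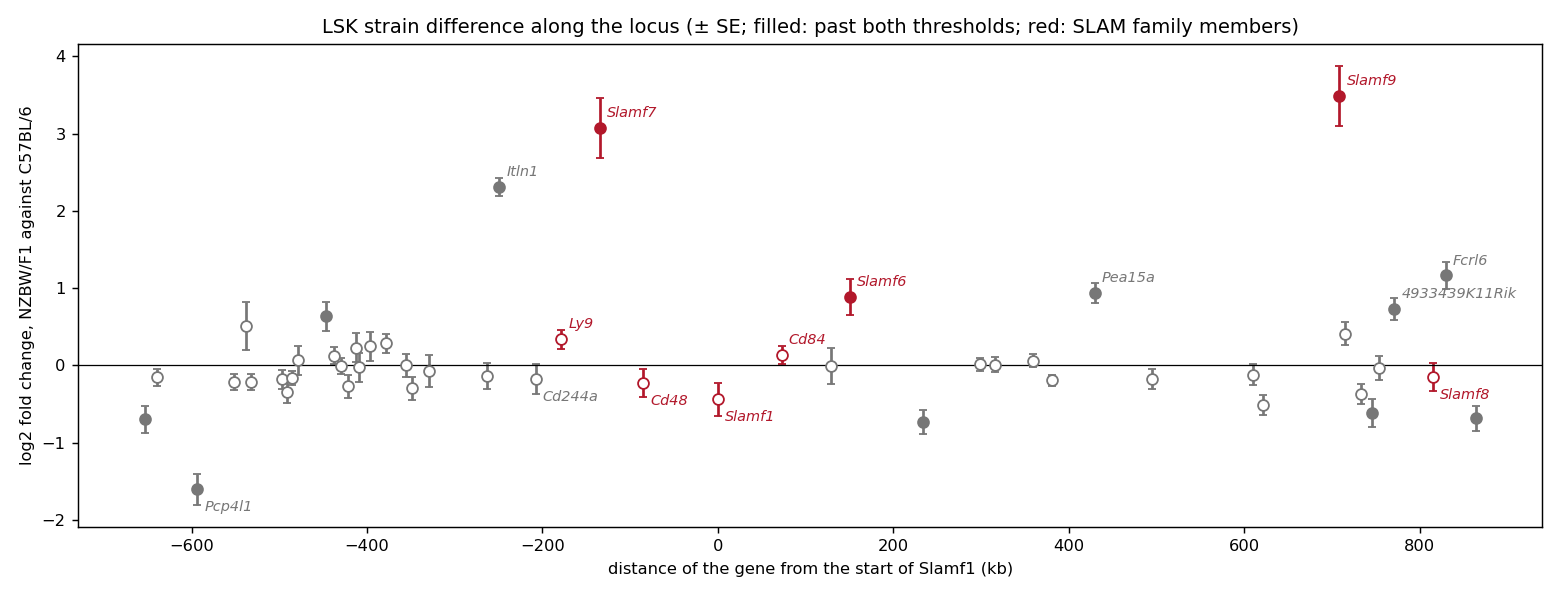
log2 fold change of NZBW/F1 against C57BL/6 LSK (vertical, with SE) for the 8 members (red) and 41 tested neighbours (grey) against the distance from the start of Slamf1 in kilobases (horizontal), filled where called. Slamf7 and Slamf9 stand above 3. Between them, Cd48, Slamf1 and Cd84 lie within 0.44 of 0 and Slamf6 is called at 0.89. Neighbours are called in both directions.

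The genes most like each member were found by Pearson r of log2(CPM + 1) over the 12 LSK samples, as a description across samples that share strain, stage and library. Slamf1 was most like Col18a1 (0.97), Esam (0.96) and Casp12 (0.95), with r of 0.89 to 0.91 after group means were subtracted. Esam is itself an endothelial adhesion molecule used to mark stem cells. Slamf7 was most like Pou2af1, Mzb1 and Tnfrsf13c (0.99 each, and 0.92 to 0.95 after subtraction), a B cell coactivator, a chaperone of antibody secretion and the BAFF receptor. Slamf9 was most like Epcam (0.99), Hepacam2 (0.98) and Tspan15 (0.98), with 0.91 to 0.95 after subtraction.

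The other members followed different genes. Ly9 was most like Ccr9 (0.95), Retreg3 (0.93) and Cd8b1 (0.92), and Cd84 was most like Mtf1 (0.95), Map3k9 (0.95) and Gm49654 (0.94). Slamf6 was most like Atp1b1 (0.93), Nedd9 (0.92) and Tubgcp5 (0.92), which dropped to 0.63 to 0.84 after subtraction. Cd48 was most like BC035044 (0.86), Emb (0.84) and Tmem173 (0.84), and Slamf8 was most like Cnbd2 (0.90), Tspo (0.89) and Fcgrt (0.87). No member was among the 3 genes most like another member. Slamf7 and Slamf9 had an r of 0.91 with each other, and Slamf1 and Cd48, the stem cell pair, one of −0.22.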

How the data were processed

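RNA of sorted LSK (12 samples) and CMPs (6 samples) was sequenced, and samples were grouped by their labels. The authors prepared libraries with a TruSeq kit, aligned single-end reads with STAR 2.6 to mm10 (GRCm38), counted them per gene with HTSeq and scaled them in edgeR. The deposited signal values are CPM relative to scaled library sizes, in 1 table per cell type that was normalised on its own. All values (100%) were whole multiples of 1 read within 0.05 reads, so count tests were run on recovered reads as alternatives. Unscaled CPM had been assumed when the tests were chosen, and limma was kept as the main test. Counting error is small at 20001328 reads or more, except for genes near 1 CPM.

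Only the groups compared entered a fit, and strain averages and the difference of stage effects used all 12 LSK samples. limma 3.58.1 (R 4.3.3) was run with a trend on log2(CPM + 1). p-values were adjusted by Benjamini-Hochberg over every gene that reached 1 CPM in 3 samples. edgeR 4.0.16 and DESeq2 1.42.0 were alternatives. Scripts were tested on simulated data. Tables were handled in Python 3.11.15 (numpy 2.4.6, pandas 2.3.3, matplotlib 3.10.9). Positions and exon lengths are from GENCODE M21, matched to 19770 LSK genes and 18421 CMP genes. The text names the 8 members, the called genes of a SLAM signalling list with Cd244a, Sh2d1a and Cd2, up to 8 locus neighbours called without overlap between strains, cell type markers and the 3 genes most like each member. Members and lists were chosen with earlier results of these data known. Alternatives were a pseudocount of 0.1, no filter, other scalings, a replicate block, other tests, no fold change minimum, 1 fit for all LSK samples and leaving out each replicate. The older against younger contrast was added after seeing the data. Single values of some marker genes are not reported here.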

Additional observations from a re-analysis of the deposited data

Results flagged for a closer look

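The stage difference of Slamf6 in LSK (F1-L minus F1-P) exceeded the age difference in C57BL/6 (B6-O minus B6-Y) by 2.22 on the log2 scale (SE 0.46). Slamf6 was low in all 3 B6-O samples, and the 2 effects were compared by an interaction term. This term had an unadjusted p below 0.05 but an adjusted p of 0.607 in limma and 0.815 in edgeR's quasi-likelihood test, so it did not pass over all genes, whereas the likelihood ratio test (0.0039) and DESeq2 (0.00204) called it. Marker lists were positive in the same term with 0 called, at a median of 2.16 for macrophage markers (8 of 8 positive), 1.81 for neutrophil markers (8 of 8) and 0.86 for B cell markers (7 of 7), and their part was not tested.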

How the results depend on the processing

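Under every other setting that left out no sample, the calls of Slamf7 and Slamf9 (both strain comparisons) and of Slamf6 (F1-L against B6-O and the strain average) all held. In those strain comparisons Slamf9 had passed the filter through NZBW/F1 alone, so its calls there are given as a description. The number of members called changed elsewhere. It was 0 in limma and 1 in both edgeR's likelihood ratio test and DESeq2 for B6-O against B6-Y (Slamf6) and for the difference of stage effects (Slamf6). In CMPs it was likewise 0 and 1, but that 1 was Slamf7, which entered the fit through F1-P alone, and the call supports nothing. For older against younger LSK it was 0 in limma, 1 under the replicate block and the quasi-likelihood test (Slamf1) and 2 in the likelihood ratio test and DESeq2 (Slamf1 and Slamf6). The Slamf1 calls support nothing, since that contrast was added after the Slamf1 values were seen. Leaving out 1 replicate gave 1 to 3 members for F1-L against B6-O and 0 to 2 for older against younger, where Slamf1 was called without F1-L replicate 1 (1.10), Slamf6 without F1-L replicate 1 or B6-Y replicate 3, and Slamf7 without B6-O replicate 3. The cause was not tested.

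Replicate numbers are shared between groups, but same-numbered samples did not deviate together in every pair of any comparison (r from −0.45 to 0.62), so they were not taken as pairs. The block changed the members called in the added contrast only, and it changed the genes called between F1-P and F1-L from 4 to 0 in LSK and from 1 to 0 in CMPs.

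Log2 differences that changed sign belonged to members not called in those comparisons. Slamf8 (F1-L against B6-O) was 0.034 with a pseudocount of 0.1, 0.017 with median of ratios scaling and 0.0013 with scaling without immunoglobulin genes. Slamf9 was 0.27, 0.27 and 0.25 (B6-O against B6-Y) and −0.045, −0.049 and −0.028 (difference of stage effects) in the quasi-likelihood test, the likelihood ratio test and DESeq2, and −0.035 (older against younger) with a pseudocount of 0.1. Cd84 in CMPs was −0.064, −0.064 and −0.072 in the 3 count tests. With 1 replicate left out, Slamf6 ranged from −0.16 to 0.35 and Slamf9 from −0.15 to 0.66 for F1-L against F1-P. For F1-P against B6-Y, Cd48 ranged from −0.32 to 0.012, Cd84 from −0.15 to 0.11 and Slamf6 from −0.54 to 0.11. Slamf8 ranged from −0.19 to 0.14 for F1-L against B6-O, and Cd84 from −0.081 to 0.18 and Slamf9 from −0.36 to 0.35 for B6-O against B6-Y. The difference of stage effects ranged from −0.24 to 0.43 for Slamf1, −0.38 to 0.086 for Cd48, −0.0092 to 1.24 for Slamf7 and −0.12 to 0.89 for Slamf9. Slamf9 ranged from −0.21 to 0.31 for older against younger, and in CMPs Cd48 ranged from −0.29 to 0.17 and Cd84 from −0.36 to 0.30.

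Over all genes, the likelihood ratio test and DESeq2 called 657 and 734 genes for F1-L against F1-P, 114 and 207 for B6-O against B6-Y, 10 and 29 for the difference of stage effects, 646 and 662 for older against younger and 308 and 351 in CMPs, against 4, 0, 0, 251 and 1 in limma. For F1-L against F1-P limma called 1 gene without the filter, 2 with median of ratios scaling and 26 with all 12 LSK samples in 1 fit, which called 13 for B6-O against B6-Y. Without a fold change minimum the strain average called 4674 genes, against 2869. With 1 replicate left out, limma called 0 to 25 genes for F1-L against F1-P, 927 (without F1-P replicate 2) to 2229 for F1-P against B6-Y, 448 (without F1-L replicate 3) to 2285 for F1-L against B6-O, 22 (without F1-P replicate 2) to 346 for older against younger, 48 for B6-O against B6-Y without B6-O replicate 3 and 434 in CMPs without F1-P replicate 1.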
